A study of Mus musculus with 8 samples.

Results

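The transcriptome of induced pluripotent stem cells (iPSCs) was compared with that of the mouse embryonic fibroblasts (MEFs) from which such cells are made, with 1 long RNA library on each side. The comparison took every gene row with at least 1 FPKM (the deposited unit, in which the reads of a gene are divided by its length and by the size of the library) in either library, which left 12937 of the 17922 rows of the deposited table. A row was called higher or lower in iPSCs when log2(FPKM + 1) differed by at least 1 between the libraries. By that rule 2724 rows (21.1% of the rows compared) were higher in iPSCs, 3232 (25.0%) were lower and 6981 differed by less. With 1 library per group there was no replicate error, no test and no p-value, and every difference below is one between these 2 libraries.

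The series followed reprogramming of C57BL/6 cells in 8 samples, which were long and small RNA libraries of 4 stages, and the 4 long RNA libraries are used here. The fibroblasts came from fetuses of embryonic day 13.5 of tetO-OSKM mice, in which doxycycline switches on transgenes for Pou5f1, Sox2, Klf4 and Myc, and they were used at low passage. All groups therefore carried the transgenes. The MEF library was made on day 0, before doxycycline, and its values are given below either as those of MEFs or as those of day 0. The day 3 and day 6 libraries were made after 3 and 6 days of doxycycline in serum-replacement medium with LIF and CHIR99021, a GSK3 inhibitor. The iPSC library came from cells labelled as fully reprogrammed. Not given in the sources used here are the medium of the MEFs, the medium and any feeder cells of the iPSCs, the number of iPSC clones, and whether cultures were pooled.

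As background, fibroblasts are secretory cells of connective tissue that build and remodel the matrix around them, hold on to it through integrins and contractile adhesions, and signal to immune cells. Pluripotent cells grow as compact epithelial colonies, divide fast with short gap phases, and hold many tissue-specific genes silent while germ cell genes are partly active. Reprogramming replaces one of these programmes with the other. The core pluripotency factors and the matrix genes that define fibroblasts are used below only to check the labels, and the account turns on the other families and processes among the strongest and most abundant genes.

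Both labels matched the defining markers. All 9 iPSC markers compared were higher in iPSCs (median difference 6.46) and all 10 MEF markers were lower (-5.24). Collagen I genes kept low values in the iPSC library, with 7.47 FPKM for Col1a1 and 11.8 for Col1a2. The macrophage markers were low in the MEF library, where Lyz2 was highest at 52.9 FPKM, and 7 of 8 compared were lower in iPSCs, with Tyrobp, C1qa and Emr1 listed at 0 there. Of 9 cartilage markers, 7 were lower in iPSCs, and Col2a1 stood at 740.4 FPKM in MEFs against 1.79 in iPSCs. On the iPSC side 5 of 7 endoderm and 5 of 6 trophoblast markers were higher, at levels no higher than 13.1 FPKM (Cubn) and 15.3 FPKM (Tfap2c) among those called. Of 5 skeletal muscle markers compared, 3 were higher, while the muscle regulator Myog had 0.0909 FPKM in iPSCs. Of 5 endothelial markers 3 were higher and 1 lower, of 3 neural markers 0 were higher and 1 lower, and of 2 early mesoderm or primed epiblast markers both were higher, with Otx2 at 16.9 FPKM. Under 1 FPKM in MEFs were 8 of the 9 iPSC, 4 of the 7 endoderm and 5 of the 6 trophoblast markers. So were 3 of the 5 muscle, 2 of the 5 endothelial and both early mesoderm markers. All these markers were compared through their iPSC value alone, and 78.3% of all such rows were called higher. Under 1 FPKM in iPSCs were 4 of the 10 MEF, 7 of the 8 macrophage and 4 of the 9 cartilage markers. Of all such rows, 78.3% were called lower. Over all rows compared the shares were 21.1% higher and 25.0% lower. The part of cells of these lineages in the differences was not tested.

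Sums of FPKM ran from 438130 to 486609 over the 4 libraries. The most common ratio of the iPSC to the MEF value was taken over 554 rows under 0.06 FPKM in both libraries. If such rows hold equal numbers of fragments, the iPSC library held about 1.06 fragments for each fragment of the MEF library. That assumption was not tested. FPKM is a share of a library, so in these bulk samples fewer cells with a transcript and less of it per cell cannot be told apart. The median difference over all rows compared was -0.05. Scaling both libraries to the same upper quartile moved that median by 0.15, to 0.10, and gave 3154 higher and 2871 lower rows, so the share of called rows that were higher went from 45.7% to 52.3%. A value of 0 is given as the table lists it and can be a failed estimate. The rows beside the threshold were Pprc1 with 10.5 FPKM in MEFs against 21.98 in iPSCs and Ttc13 with 30.8 FPKM in MEFs against 14.9 in iPSCs just inside it, and Arhgap26 with 0.762 FPKM in MEFs against 2.52 in iPSCs and Npc2 with 96.9 FPKM in MEFs against 48.0 in iPSCs just outside.

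**Figure D1:**
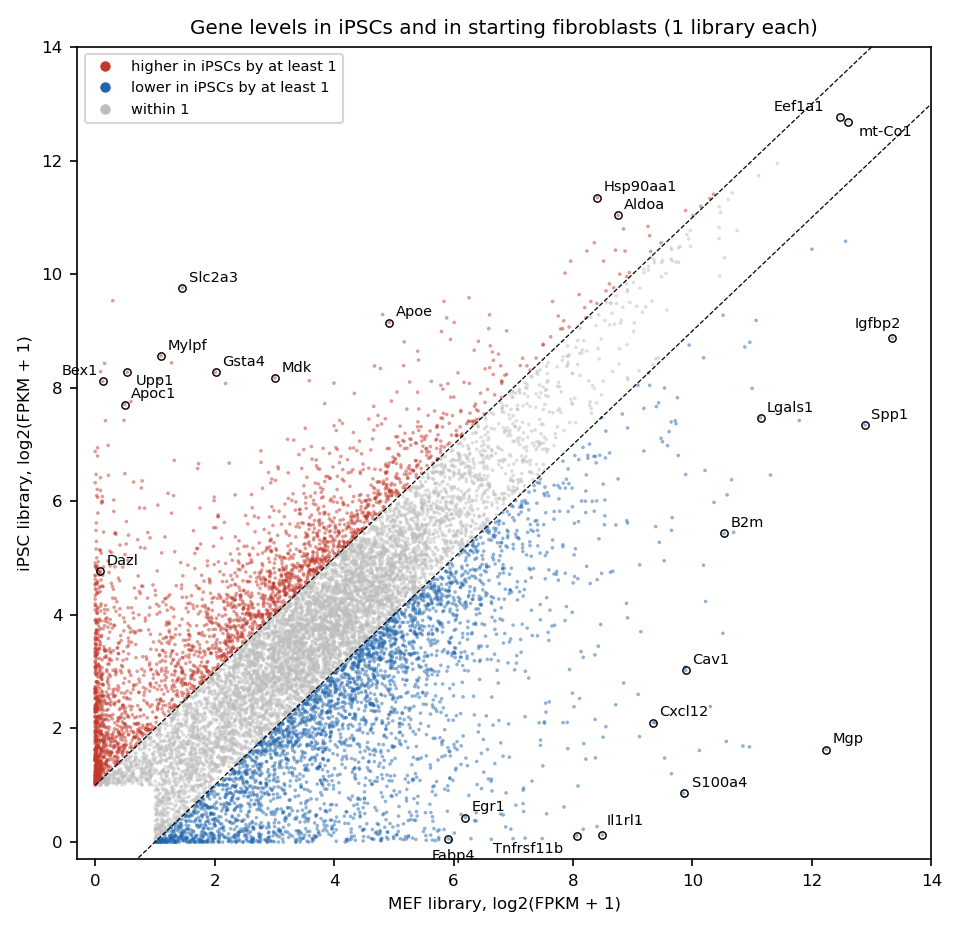
Each point is 1 of the 12937 rows compared, with log2(FPKM + 1) in the MEF library on the horizontal and in the iPSC library on the vertical axis. Dashed lines mark a difference of 1 in either direction, red points are higher in iPSCs (2724), blue points lower (3232) and grey points within the rule (6981), and named genes are circled.

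In the values as deposited, more of the large differences lay on the fibroblast side. A difference of at least 3 (8-fold on this scale) was reached by 363 rows higher in iPSCs (2.81%) and 577 rows lower (4.46%). These counts were not repeated after scaling. At a difference of 1, upper quartile scaling turned the balance to 3154 higher and 2871 lower rows. The 40 strongest rows higher in iPSCs spanned differences of 5.46 to 9.24, and the 40 strongest lower rows spanned -10.61 to -6.30. Rows called lower made up 45.8% of the FPKM sum of the MEF library, 45.5% at day 3, 42.7% at day 6 and 8.52% in iPSCs. Rows called higher made up 8.53%, 8.76%, 9.68% and 33.3%. The rule chose these rows by their MEF and iPSC values, so the direction of the change in share between those libraries follows from that choice. At day 6 all 40 strongest lower rows still had at least 10 FPKM, and 1 of the 40 strongest higher rows had reached 10 FPKM. That row was Gsta4, a glutathione transferase that clears lipid peroxidation products, at 3.04, 6.78 and 29.7 FPKM on days 0, 3 and 6 and 308 FPKM in iPSCs.

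**Figure D2:**
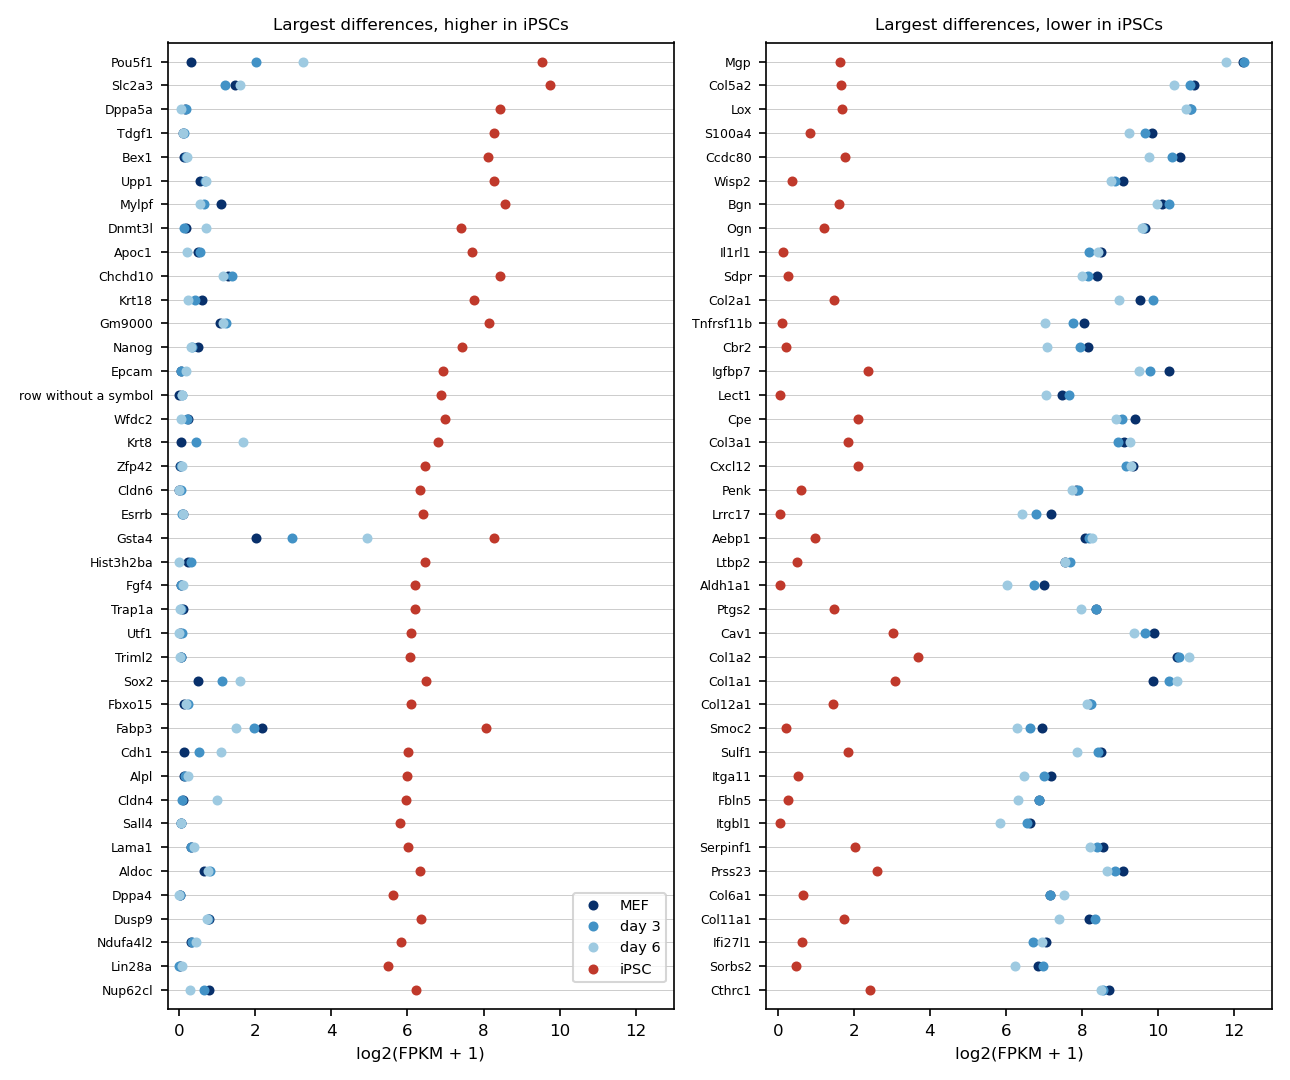
The 40 rows with the largest differences on each side, with log2(FPKM + 1) in the MEF, day 3, day 6 and iPSC libraries as separate points. In all 80 rows the iPSC point lies beyond the other 3 points, above them on the left (differences from MEFs of 5.46 to 9.24) and below them on the right (-10.61 to -6.30).

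The gene with the largest difference after Pou5f1 was a sugar transporter. Slc2a3 (ENSMUSG00000003153), which encodes the high-affinity glucose transporter GLUT3, was at 1.75, 1.31 and 2.02 FPKM on days 0, 3 and 6 and 866 FPKM in iPSCs, a difference of 8.30. It was under 3 FPKM in all 3 earlier libraries and was among the 40 most abundant rows called higher in iPSCs. In the RefSeq gene order, with no protein-coding gene between them, Slc2a3 lies next to Nanog, which stood at 0.398, 0.270 and 0.241 FPKM on days 0, 3 and 6 and 171 FPKM in iPSCs. Of 15 glucose and monocarboxylate transporters compared, 6 were higher and 5 lower (median 0.51), beside 21.1% and 25.0% of all rows. Called members thus lay on both sides. Of the 15, 4 were under 1 FPKM in MEFs and 5 in iPSCs, and these were compared through the other library alone. With at least 5 FPKM required in either library, the median was 1.61. Slc2a1 (GLUT1) was at 19.2, 20.3 and 17.8 FPKM on days 0, 3 and 6 and 238 FPKM in iPSCs. The lactate carriers Slc16a3 (MCT4) and Slc16a1 (MCT1) were at 2.32 FPKM in MEFs against 100.3 in iPSCs and at 6.96 FPKM in MEFs against 56.2 in iPSCs. Their chaperone Bsg was within the rule at 439 FPKM in MEFs against 411 in iPSCs. The lower members were weakly expressed, with Slc2a10 highest in MEFs at 7.39 FPKM. Aldoc, an aldolase isozyme known best from brain, was at 0.562, 0.737 and 0.687 FPKM on days 0, 3 and 6 and 80.0 FPKM in iPSCs, while the ubiquitous isozyme Aldoa was at 431, 395 and 485 FPKM on days 0, 3 and 6 and 2099 FPKM in iPSCs.

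Some lipid carriers were also far higher in iPSCs, while the listed lipid genes as a group lay near the shares of all rows. Apoc1 was at 0.410, 0.461 and 0.157 FPKM on days 0, 3 and 6 and 207 FPKM in iPSCs (difference 7.21) and Apoe, a ligand of lipoprotein receptors from the same gene cluster, at 29.4, 19.97 and 19.3 FPKM on days 0, 3 and 6 and 566 FPKM in iPSCs (4.22). Fabp3, the fatty acid binding protein known from heart, was at 3.54, 2.87 and 1.80 FPKM on days 0, 3 and 6 and 268 FPKM in iPSCs. Listed members of its family, by contrast, were lower. The adipocyte form Fabp4 was at 59.2, 53.0 and 48.6 FPKM on days 0, 3 and 6 and 0.0416 FPKM in iPSCs, and Fabp5 was at 132 FPKM in MEFs against 21.4 in iPSCs. Of 24 genes of fatty acid and lipid handling, 5 were higher (20.8%) and 7 lower (29.2%), beside 21.1% and 25.0% of all rows (median -0.15). The lower ones included the adipogenic regulator Pparg at 10.7 FPKM in MEFs against 0.134 in iPSCs and the desaturases Fads1 and Fads2. The synthesis genes Fasn, Acaca and Scd1 were within the rule, with 29.5 FPKM in MEFs against 24.2 in iPSCs for Fasn.

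Several of the strongest iPSC rows belonged to small or little-studied families. Bex1 of the X-linked brain-expressed family was at 0.0922, 0.139 and 0.157 FPKM on days 0, 3 and 6 and 275 FPKM in iPSCs, and the 3 earlier libraries were all under 1 FPKM. Upp1, the uridine phosphorylase that splits uridine into uracil and ribose phosphate, was at 0.453, 0.585 and 0.618 FPKM on days 0, 3 and 6 and 308 FPKM in iPSCs. Chchd10, a protein of the mitochondrial intermembrane space, was at 1.42, 1.59 and 1.21 FPKM on days 0, 3 and 6 and 346 FPKM in iPSCs. Ndufa4l2, which resembles a subunit of the respiratory chain, was at 0.241, 0.260 and 0.362 FPKM on days 0, 3 and 6 and 55.6 FPKM in iPSCs. Mylpf, a regulatory light chain of fast skeletal muscle myosin, was at 1.15, 0.581 and 0.458 FPKM on days 0, 3 and 6 and 377 FPKM in iPSCs. The other fast-muscle genes Tnnt3 and Ckm had 1.19 and 0.0987 FPKM in iPSCs, and Des, the muscle intermediate filament gene, had 24.7. Dusp9, a phosphatase that acts on ERK, was at 0.725, 0.692 and 0.648 FPKM on days 0, 3 and 6 and 81.1 FPKM in iPSCs. Trap1a (tumour rejection antigen P1A, an X-linked gene of testis and placenta) and Wfdc2 (a secreted protein with a protease-inhibitor domain) were at 0.0647 FPKM in MEFs against 72.1 in iPSCs and at 0.163 FPKM in MEFs against 126 in iPSCs. Triml2, next to Zfp42 in the gene order, was at 0.0291 FPKM in MEFs against 66.2 in iPSCs. One of the 40 rows had no gene symbol, at 0, 0.0468 and 0.0582 FPKM on days 0, 3 and 6 and 117 FPKM in iPSCs.

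Most germ cell genes were under 1 FPKM in MEFs and above it in iPSCs. Of 32 genes of the germ cell and piRNA pathway found in the table, 26 were compared, 25 of them higher and 1 lower (median 2.83), where 21.1% and 25.0% of all rows were called. That count was largely set by the minimum of 1 FPKM, because 24 of the 26 were under it in MEFs and were compared through their iPSC value alone. Of all 1349 rows compared in that way, 1056 (78.3%) were called higher. With no minimum the median over all 32 was 2.66. Among RNA-binding proteins of germ cells, Dazl (ENSMUSG00000010592) was at 0.0621, 0.0476 and 0.0502 FPKM on days 0, 3 and 6 and 26.3 FPKM in iPSCs and the helicase Ddx4 at 0.0284, 0.0238 and 0.0588 FPKM on days 0, 3 and 6 and 11.1 FPKM in iPSCs. Among meiotic chromosome proteins, the cohesin subunit Stag3 was at 0.638, 0.922 and 1.28 FPKM on days 0, 3 and 6 and 39.1 FPKM in iPSCs and the synaptonemal complex protein Sycp3 at 0.669, 0.676 and 0.528 FPKM on days 0, 3 and 6 and 20.3 FPKM in iPSCs. In the 3 earlier libraries these 4 genes stayed at or below 1.28 FPKM, the value of Stag3 at day 6. For the piRNA pathway, which silences transposons in the germ line, Mael was at 0.1001 FPKM in MEFs against 27.7 in iPSCs, Tdrd12 at 0.114 FPKM in MEFs against 9.49 in iPSCs, Mov10l1 at 0.0175 FPKM in MEFs against 5.47 in iPSCs and the Argonaute protein Piwil2 at 0.0613 FPKM in MEFs against 6.50 in iPSCs. Tex19.1 was the highest difference of the group, at 0.0601, 0.0155 and 0.0875 FPKM on days 0, 3 and 6 and 34.1 FPKM in iPSCs. The exception was Tdrd7, a tudor protein also used outside the germ line, at 17.8, 17.1 and 15.3 FPKM on days 0, 3 and 6 and 3.16 FPKM in iPSCs. Another 6 genes of the list stayed under 1 FPKM in both libraries, among them Tdrd1 with 0.490 and Piwil4 with 0.0937 FPKM in iPSCs. At iPSC levels of up to 39.1 FPKM (Stag3), the group held 0.0703% of the FPKM sum of the iPSC library and 0.00486% of that of the MEF library.

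The promoters of these genes are shown because several share a short palindrome, CACGTG (an E-box, which reads the same on both strands). It was searched in the 250 bases before each start in the RefSeq promoter table (build GRCm38.p6). It was present in 10 of 25 promoters of the compared germ cell genes (40%, from 9 of the 20 genes with a promoter in the table) and in 1978 of 32851 promoters of all genes (6.02%). Capitals mark the match in the sequences, which run 5′ to 3′ on the gene's strand and end at the base before the start. Ddx4 lies on the minus strand at chr13:112652311-112652560, Taf7l (a testis form of a TFIID subunit) on the minus strand at chrX:134476491-134476740, Stag3 on the plus strand at chr5:138280259-138280508 and Sycp3 on the plus strand at chr10:88459337-88459586.
Ddx4: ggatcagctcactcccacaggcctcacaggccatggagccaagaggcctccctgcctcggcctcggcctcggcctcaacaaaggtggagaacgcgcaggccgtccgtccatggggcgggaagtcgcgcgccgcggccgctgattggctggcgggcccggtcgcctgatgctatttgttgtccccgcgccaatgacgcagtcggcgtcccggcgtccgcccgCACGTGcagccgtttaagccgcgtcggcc
Taf7l: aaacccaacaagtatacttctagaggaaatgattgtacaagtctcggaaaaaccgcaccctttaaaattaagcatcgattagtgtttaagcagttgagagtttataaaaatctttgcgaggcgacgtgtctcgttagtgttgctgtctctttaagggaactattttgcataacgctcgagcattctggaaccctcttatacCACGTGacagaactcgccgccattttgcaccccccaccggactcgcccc
Stag3: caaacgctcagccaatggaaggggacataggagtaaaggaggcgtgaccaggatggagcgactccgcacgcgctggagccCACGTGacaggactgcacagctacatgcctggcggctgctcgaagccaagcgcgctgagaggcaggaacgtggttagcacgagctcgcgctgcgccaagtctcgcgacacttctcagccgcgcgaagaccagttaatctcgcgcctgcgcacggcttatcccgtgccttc
Sycp3: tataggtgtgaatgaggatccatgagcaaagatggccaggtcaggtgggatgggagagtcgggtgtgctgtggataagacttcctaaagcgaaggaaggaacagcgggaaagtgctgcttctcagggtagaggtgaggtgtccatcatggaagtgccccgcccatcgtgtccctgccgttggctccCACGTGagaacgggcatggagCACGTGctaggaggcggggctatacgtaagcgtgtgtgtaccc
Ddx4, Taf7l and Stag3 held 1 match each, and Sycp3 held 2, at 64 and 43 bases before the start. A match is a description of the letters and was not tied to binding in these data. GGCGGGA, a form of the E2F site, was searched on both strands and was in 5 of the 25 (20%) beside 9.75% of all promoters. That share was not particular to germ cell genes. In the spindle, replication and repair lists described below it was in 8 of 40 (20%), 10 of 38 (26.3%) and 9 of 31 (29.0%) promoters.

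Genes of a polycomb complex known for silencing germ cell genes did not move together. Its subunits Pcgf6 (5.83 FPKM in MEFs, 25.8 in iPSCs), L3mbtl2 (5.90 FPKM in MEFs, 22.4 in iPSCs) and Mga (30.2 FPKM in MEFs, 67.7 in iPSCs) were higher in iPSCs. Its DNA-binding subunit E2f6 was lower, at 40.7, 30.1 and 28.0 FPKM on days 0, 3 and 6 and 11.6 FPKM in iPSCs, and Max, the partner of Mga, was within the rule at 28.9 FPKM in MEFs against 18.7 in iPSCs. In the wider list of retroelement silencing and heterochromatin, 11 of 22 were higher and 1 was lower, which was E2f6. Hells, a helicase needed for DNA methylation of repeats, was at 54.6, 59.0 and 71.3 FPKM on days 0, 3 and 6 and 508 FPKM in iPSCs. Trim28, the corepressor that zinc finger proteins with a KRAB domain recruit, was at 117, 119 and 126 FPKM on days 0, 3 and 6 and 511 FPKM in iPSCs, and Zfp57, a KRAB protein that guards imprints, was at 12.5 FPKM in MEFs against 93.6 in iPSCs.

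The machinery of chromosome copying and segregation stood on the iPSC side with few exceptions. Of 44 kinetochore, spindle and mitotic kinesin genes, 41 were higher and 0 lower (median 2.09). The checkpoint kinases Bub1 and Bub1b had the largest differences, with Bub1 at 13.1, 12.6 and 15.5 FPKM on days 0, 3 and 6 and 121 FPKM in iPSCs and Bub1b at 12.002, 12.5 and 16.5 FPKM on days 0, 3 and 6 and 105 FPKM in iPSCs. Of 39 replication genes, 36 were higher and 0 lower (median 1.96), led by the licensing factor Cdt1 at 5.14, 5.34 and 6.34 FPKM on days 0, 3 and 6 and 68.5 FPKM in iPSCs. The leading-strand and lagging-strand polymerase subunits Pole and Pold1 were at 6.75 FPKM in MEFs against 33.9 in iPSCs and at 10.7 FPKM in MEFs against 84.8 in iPSCs. Of 39 repair genes, 25 were higher and 0 lower (median 1.64). The mismatch repair gene Msh6 was at 8.33, 8.53 and 9.13 FPKM on days 0, 3 and 6 and 136 FPKM in iPSCs, while Msh3 of the same pathway was within the rule at 2.93 FPKM in MEFs against 6.69 in iPSCs. Parp1, which marks strand breaks with ADP-ribose, was at 15.0, 15.0 and 17.3 FPKM on days 0, 3 and 6 and 159.9 FPKM in iPSCs. The end-joining ligase Lig4 was within the rule at 2.05 FPKM in MEFs against 1.77 in iPSCs.

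CCAAT, the letters bound by the factor NF-Y, was in 29 of 40 promoters of the spindle list (72.5%), in 23 of 38 of the replication list (60.5%) and in 17 of 31 of the repair list (54.8%), on either strand. Over all promoters the share was 33.8%, and among compared germ cell genes it was 36.0%. Aurka, the mitotic kinase of the spindle poles (15.6 FPKM in MEFs, 72.9 in iPSCs), and Bub1b are printed as examples with the match in capitals, on the minus strand at chr2:172370571-172370820 and on the plus strand at chr2:118597961-118598210.
Aurka: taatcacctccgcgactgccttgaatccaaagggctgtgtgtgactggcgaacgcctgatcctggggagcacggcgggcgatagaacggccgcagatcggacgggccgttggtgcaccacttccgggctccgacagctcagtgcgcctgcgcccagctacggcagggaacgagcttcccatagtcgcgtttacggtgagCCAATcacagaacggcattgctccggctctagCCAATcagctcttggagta
Bub1b: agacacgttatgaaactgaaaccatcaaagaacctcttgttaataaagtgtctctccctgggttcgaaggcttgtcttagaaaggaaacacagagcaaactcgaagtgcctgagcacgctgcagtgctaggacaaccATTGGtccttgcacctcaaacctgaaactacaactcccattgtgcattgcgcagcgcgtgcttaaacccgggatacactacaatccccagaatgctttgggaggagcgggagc
Aurka held 2 matches, at 51 and 19 bases before the start. Bub1b held 1, at 113 bases, written ATTGG because it lies on the other strand.

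Nucleotide synthesis genes lay on the iPSC side or within the rule, while genes of one-carbon metabolism differed by enzyme. Of 25 nucleotide synthesis genes, 14 were higher and 0 lower (median 1.29). Cad, the enzyme that starts pyrimidine synthesis, was at 9.72 FPKM in MEFs against 56.7 in iPSCs, Ppat, which starts purine synthesis, at 5.97 FPKM in MEFs against 33.0 in iPSCs, and the ribonucleotide reductase subunit Rrm2 at 32.4 FPKM in MEFs against 139.8 in iPSCs. Among 22 genes of serine, glycine, threonine and folate metabolism, 9 were higher and 2 lower (median 0.57). The largest differences lay in genes that break down threonine and glycine. Tdh, the threonine dehydrogenase on which mouse pluripotent cells are known to depend, was at 0.0103, 0 and 0 FPKM on days 0, 3 and 6 and 34.7 FPKM in iPSCs in the higher of its 2 rows. The glycine cleavage genes Gldc and Amt were at 0.101, 0.0858 and 0.0792 FPKM on days 0, 3 and 6 and 43.0 FPKM in iPSCs and at 0.693, 1.02 and 0.968 FPKM on days 0, 3 and 6 and 35.4 FPKM in iPSCs. Their partners Gcsh (31.4 FPKM in MEFs, 48.6 in iPSCs) and Dld (31.6 FPKM in MEFs, 31.6 in iPSCs) were within the rule. Serine synthesis was not on the iPSC side, since Phgdh was at 126 FPKM in MEFs against 69.2 in iPSCs and Psat1 at 107 FPKM in MEFs against 104 in iPSCs. The cytosolic folate enzymes Shmt1 (4.23 FPKM in MEFs, 34.8 in iPSCs) and Mthfd1 (17.7 FPKM in MEFs, 105 in iPSCs) were higher. Their mitochondrial counterparts Shmt2 (37.2 FPKM in MEFs, 46.2 in iPSCs) and Mthfd2 (42.6 FPKM in MEFs, 32.5 in iPSCs) were within the rule, and Aldh1l2, another mitochondrial folate enzyme, was lower at 19.14 FPKM in MEFs against 0.562 in iPSCs.

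Amino acid transporters lay near the shares of all rows, with 4 of 26 higher (15.4%) and 9 lower (34.6%), beside 21.1% and 25.0%. The largest difference among them was that of Slc38a4, a carrier of small neutral amino acids, at 1.504, 1.72 and 1.77 FPKM on days 0, 3 and 6 and 104 FPKM in iPSCs. The glutamine carrier Slc1a5 was at 11.6 FPKM in MEFs against 63.8 in iPSCs. The cystine carrier Slc7a11 was at 5.66 FPKM in MEFs against 0.628 in iPSCs and the taurine carrier Slc6a6 at 86.3 FPKM in MEFs against 17.2 in iPSCs.

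Among the most abundant rows called higher in iPSCs, protein synthesis and folding stood out by level. Ribosomal protein genes were not called higher much more often than all rows. With Rpl symbols 11 of 47 rows were higher and 0 lower, and with Rps symbols 12 of 43 were higher and 1 lower. Over all rows compared, 21.1% were higher and 25.0% lower. Of the rows called higher, the 40 with the highest iPSC values, chosen by those values, held 3.47% of the FPKM sum in MEFs and 11.4% in iPSCs. They were largely ribosomal protein, histone and glycolytic genes, whose counting can be split between near-identical copies. The heat shock protein Hsp90aa1 (ENSMUSG00000021270) was the highest of those that are none of these, at 339, 349 and 339 FPKM on days 0, 3 and 6 and 2602 FPKM in iPSCs, followed by Hsp90ab1 at 610.4, 636 and 692 FPKM on days 0, 3 and 6 and 1831 FPKM in iPSCs. Of 25 cytosolic chaperones compared, 11 were higher and 4 lower (median 0.76). The higher ones included 6 subunits of the TRiC chaperonin (Cct2, Cct3, Cct4, Cct5, Cct6a and Cct7), with Cct4 at 180.1 FPKM in MEFs against 434 in iPSCs. The lower ones included the small heat shock proteins Cryab, at 481, 488 and 370.4 FPKM on days 0, 3 and 6 and 48.1 FPKM in iPSCs, and Hspb6, at 42.7 FPKM in MEFs against 3.25 in iPSCs. The stress-inducible Hspa1b was at 4.85 FPKM in MEFs against 1.41 in iPSCs. Of 24 mitochondrial chaperones and import genes, 8 were higher and 0 lower, led by Hspe1 at 100.5 FPKM in MEFs against 299.9 in iPSCs.

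Most listed genes of ribosome assembly were higher, and genes of the enzymes that charge transfer RNAs hardly differed. Of 34 nucleolar and ribosome biogenesis genes, 21 were higher and 0 lower (median 1.21), with the nucleolar chaperone Npm1 at 364, 371 and 417 FPKM on days 0, 3 and 6 and 1200.5 FPKM in iPSCs and the pseudouridine synthase Dkc1 at 16.6 FPKM in MEFs against 82.8 in iPSCs. Of 20 cytosolic aminoacyl-tRNA synthetases, 1 was higher (Kars, 55.3 FPKM in MEFs against 158 in iPSCs) and 0 were lower (median 0.42). Of 38 proteasome genes, 0 were higher and 1 was lower, the immunoproteasome subunit Psmb8 at 2.98 FPKM in MEFs against 0.854 in iPSCs. Psma8, a testis form of an alpha subunit that the list does not hold, was higher at 0.233 FPKM in MEFs against 5.24 in iPSCs, and is named here after its value was seen. Both these lists fell below the 46.0% of all rows that passed the rule in either direction. Other abundant genes of the iPSC side were Mif, a secreted tautomerase, at 248, 218 and 358 FPKM on days 0, 3 and 6 and 1199 FPKM in iPSCs, Ptma, an acidic nuclear protein, at 232, 210.1 and 273 FPKM on days 0, 3 and 6 and 1036 FPKM in iPSCs, and Gpx4, the peroxidase that repairs lipid peroxides in membranes, at 292, 309 and 261 FPKM on days 0, 3 and 6 and 680.0 FPKM in iPSCs.

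**Figure D3:**
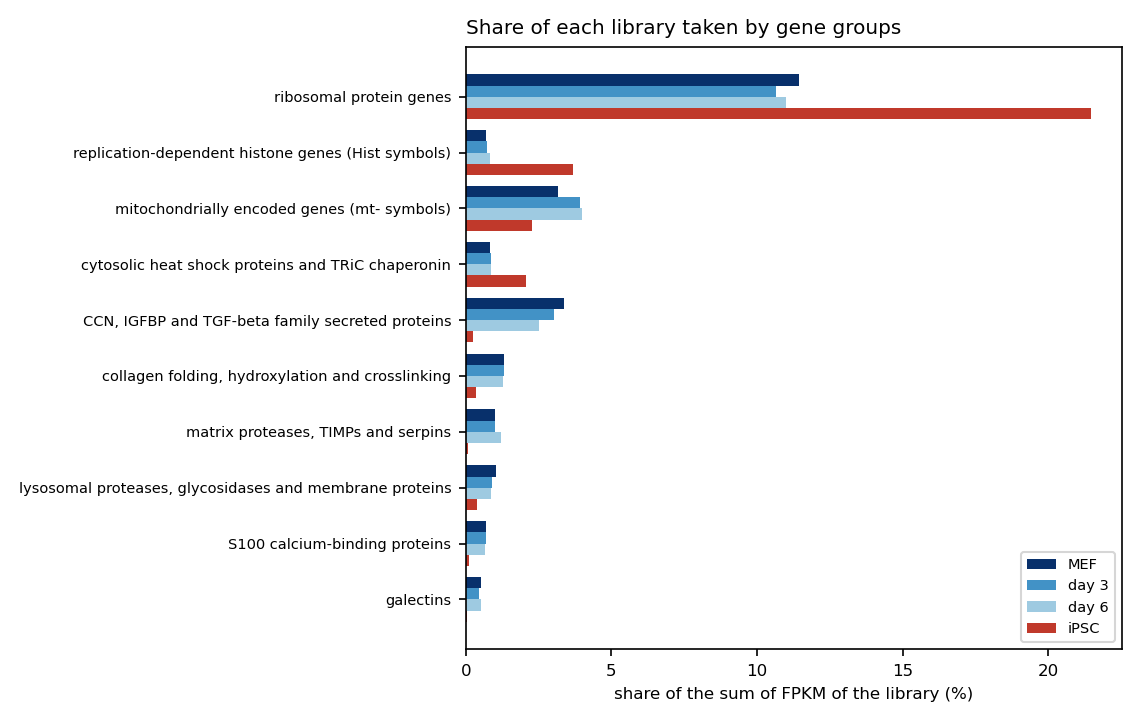
Share of the FPKM sum of each library held by gene groups, in percent, with 1 bar for each of the MEF, day 3, day 6 and iPSC libraries. Ribosomal protein genes held 11.4% in MEFs and 21.5% in iPSCs and histone genes 0.690% and 3.69%, while CCN, IGFBP and TGF-beta family secreted proteins held 3.38% and 0.250%. Most of the 3.38% in MEFs was Igfbp2.

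Among splicing regulators the largest difference in either direction was that of Mbnl1. Mbnl1, a regulator of alternative splicing that opposes pluripotent splicing patterns, was at 172, 167 and 173 FPKM on days 0, 3 and 6 and 3.29 FPKM in iPSCs, and its relative Mbnl2 at 118 FPKM in MEFs against 44.0 in iPSCs. Both were lower, Mbnl1 by far the more. Esrp1, an epithelial splicing regulator, was at 0.0101, 0 and 0.0290 FPKM on days 0, 3 and 6 and 10.9 FPKM in iPSCs. Of 36 such genes, 8 were higher (22.2%) and 2 lower (5.56%), beside 21.1% and 25.0% of all rows (median 0.61). The share that was higher thus lay near that of all rows.

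Chromatin and nuclear envelope proteins exchanged members of the same family. Among high mobility group genes, Hmgb2 (5.19, 7.33 and 6.99 FPKM on days 0, 3 and 6 and 58.1 FPKM in iPSCs) and Hmga1 (31.4 FPKM in MEFs, 105 in iPSCs) were higher, and Hmga2 (21.5, 28.4 and 30.1 FPKM on days 0, 3 and 6 and 3.47 FPKM in iPSCs) and Hmgn3 (59.0 FPKM in MEFs, 9.17 in iPSCs) were lower. In the nuclear lamina, the B-type lamin Lmnb1 was at 6.67, 8.20 and 7.81 FPKM on days 0, 3 and 6 and 79.2 FPKM in iPSCs and the lamin B receptor Lbr at 14.2 FPKM in MEFs against 114 in iPSCs. The A-type lamin Lmna was at 272, 269 and 294 FPKM on days 0, 3 and 6 and 49.0 FPKM in iPSCs and Sun2, which links the lamina to the cytoskeleton, at 56.4 FPKM in MEFs against 9.46 in iPSCs. The lamina and LINC complex list thus had 5 members higher and 5 lower of 16 (median 0.12). Among gap junction genes, Gjb5 was higher at 2.31 FPKM in MEFs against 21.1 in iPSCs, Gja1 was level at 35.6 FPKM in MEFs against 35.6 in iPSCs, and Gjb2 was lower at 19.0 FPKM in MEFs against 0.338 in iPSCs.

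**Figure D4:**
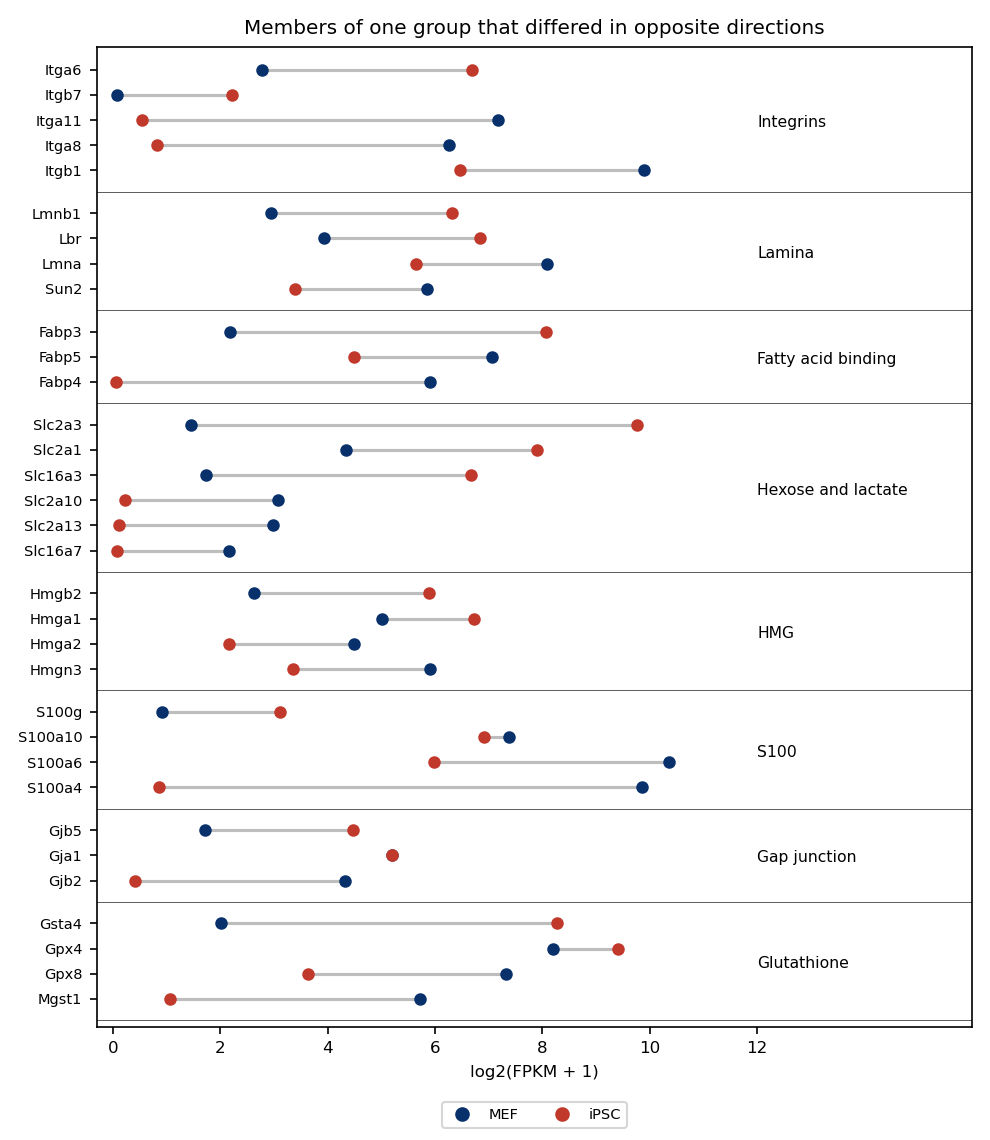
Members of 8 gene groups that lay on opposite sides, with log2(FPKM + 1) in the MEF library (dark blue) and in the iPSC library (red) joined by a line. Slc2a3, Fabp3, Lmnb1 and Itga6 lie higher in iPSCs, and Slc2a10, Fabp4, Lmna and Itga11 of the same groups lie lower.

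Genes of NODAL, FGF and LIF signalling lay on both sides. The NODAL coreceptor Tdgf1 was at 0.0643, 0.0868 and 0.0756 FPKM on days 0, 3 and 6 and 311 FPKM in iPSCs, Nodal itself at 0.0280, 0 and 0.0187 FPKM on days 0, 3 and 6 and 15.3 FPKM in iPSCs and the nuclear partner Foxh1 at 0 FPKM in MEFs against 19.2 in iPSCs. The FGF target Etv4 was at 3.33 FPKM in MEFs against 39.8 in iPSCs. In the LIF pathway the receptor Lifr was at 3.65 FPKM in MEFs against 17.6 in iPSCs and its shared subunit Il6st at 191, 185 and 224 FPKM on days 0, 3 and 6 and 11.9 FPKM in iPSCs, so the receptor subunits differed in opposite directions. The pathway's feedback inhibitor Socs3 was at 14.5 FPKM in MEFs against 64.8 in iPSCs and Stat3 at 62.0 FPKM in MEFs against 24.9 in iPSCs. The BMP targets Id1 and Id3 were at 86.2 FPKM in MEFs against 8.22 in iPSCs and at 253, 202 and 219 FPKM on days 0, 3 and 6 and 5.16 FPKM in iPSCs. Of 25 genes in the list, 13 were higher and 7 lower (median 1.58), and 9 of the 25 were under 1 FPKM in MEFs. That direction depends on weakly expressed genes, since the median was -0.57 when at least 5 FPKM in either library was required. Among growth factors, Mdk (midkine, a heparin-binding growth factor) was at 7.05, 4.47 and 6.07 FPKM on days 0, 3 and 6 and 287 FPKM in iPSCs and Igf2 at 2.35 FPKM in MEFs against 21.0 in iPSCs.

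Surface genes of the iPSC side included Alpl (0.0876 FPKM in MEFs, 62.6 in iPSCs), the alkaline phosphatase used to stain pluripotent colonies, and the laminin receptor subunit Itga6. Itga6 was at 5.86, 7.72 and 10.8 FPKM on days 0, 3 and 6 and 102 FPKM in iPSCs, and the laminin chain gene Lama1 was at 0.241, 0.234 and 0.294 FPKM on days 0, 3 and 6 and 64.0 FPKM in iPSCs. Of 23 listed surface and glycan genes, 15 were higher and 2 lower (median 1.52), and 10 were under 1 FPKM in MEFs. Of 18 integrins, Itga6 included, 12 were lower and 3 higher. Of the 18, 7 were under 1 FPKM in iPSCs and 2 in MEFs. The collagen receptor subunit Itga11 was at 143, 128 and 87.6 FPKM on days 0, 3 and 6 and 0.451 FPKM in iPSCs, and the common beta subunit Itgb1 at 946, 869 and 856 FPKM on days 0, 3 and 6 and 87.7 FPKM in iPSCs.

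On the fibroblast side the most abundant row was a secreted growth factor carrier. Igfbp2 (ENSMUSG00000039323), which binds insulin-like growth factors, was at 10428, 8553 and 6432 FPKM on days 0, 3 and 6 and 468 FPKM in iPSCs (difference -4.48). It had the highest MEF value of all rows called lower. Spp1 (osteopontin), a secreted adhesive phosphoprotein, was at 7598, 6325 and 4008 FPKM on days 0, 3 and 6 and 161 FPKM in iPSCs (-5.55). Of 35 CCN, IGFBP and TGF-beta family secreted proteins, 27 were lower and 2 higher (median -3.14), and 13 of the 35 were under 1 FPKM in iPSCs. Together they held 3.38% of the FPKM sum in MEFs and 0.250% in iPSCs. Igfbp2 alone made up 10428 of their 16433 FPKM in MEFs and 468 of their 1095 FPKM in iPSCs. Igfbp7 was at 1259, 884 and 726 FPKM on days 0, 3 and 6 and 4.23 FPKM in iPSCs. Of the CCN family, Wisp2 was at 544, 467 and 433 FPKM on days 0, 3 and 6 and 0.285 FPKM in iPSCs, Ctgf at 1531, 1518 and 1085 FPKM on days 0, 3 and 6 and 68.2 FPKM in iPSCs and Cyr61 at 737 FPKM in MEFs against 30.0 in iPSCs. Wisp2 came close to 0 in iPSCs, and Ctgf and Cyr61 did not. The latent TGF-beta binding proteins Ltbp1, Ltbp2 and Ltbp3 were lower, with Ltbp2 at 188, 206 and 185 FPKM on days 0, 3 and 6 and 0.412 FPKM in iPSCs, and so were the ligands Tgfb1, Tgfb2 and Tgfb3, with Tgfb3 at 143 FPKM in MEFs against 0.932 in iPSCs.

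Cytokine and inflammatory genes of the MEF library were nearly all lower in iPSCs. Of 31 chemokines, interleukins and prostaglandin enzymes, 25 were lower and 1 higher (median -2.65). Of these 31, 16 were under 1 FPKM in iPSCs and were compared through their MEF value alone, and of all 1201 rows compared in that way 940 (78.3%) were called lower. Il1rl1 (ENSMUSG00000026069), the receptor of interleukin 33 and its soluble decoy form, was at 359, 292 and 344 FPKM on days 0, 3 and 6 and 0.0901 FPKM in iPSCs, a difference of -8.37. Tnfrsf11b (osteoprotegerin, a decoy receptor of bone remodelling) was at 266, 215 and 129.8 FPKM on days 0, 3 and 6 and 0.0780 FPKM in iPSCs. Cxcl12, the chemokine that holds stem cells in bone marrow, was at 649, 573 and 629 FPKM on days 0, 3 and 6 and 3.30 FPKM in iPSCs. Ptgs2 (COX-2, the inducible prostaglandin synthase) was at 331, 331 and 251 FPKM on days 0, 3 and 6 and 1.79 FPKM in iPSCs. All 4 genes had over 100 FPKM in each of the 3 earlier libraries and under 4 FPKM in iPSCs. The opioid peptide precursor gene Penk was at 229.7, 237 and 214 FPKM on days 0, 3 and 6 and 0.534 FPKM in iPSCs, and Cpe, an enzyme that trims such precursors, at 667, 528 and 477 FPKM on days 0, 3 and 6 and 3.29 FPKM in iPSCs.

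Genes of antigen presentation and complement were mostly lower. B2m, the light chain of MHC class I, was at 1478, 1223 and 1310.1 FPKM on days 0, 3 and 6 and 42.3 FPKM in iPSCs, and the heavy chain genes H2-D1 and H2-K1 at 74.0 FPKM in MEFs against 8.39 in iPSCs and at 55.3 FPKM in MEFs against 11.95 in iPSCs. The levels of the heavy chains, which have near-identical relatives, are uncertain. Of 17 genes of antigen processing, 11 were lower and 1 higher, and 4 of the 17 were under 1 FPKM in iPSCs and 2 in MEFs. Of 15 complement genes, 12 were lower and 2 higher, and the higher ones were Cd55, which protects cells from complement, at 1.27 FPKM in MEFs against 17.1 in iPSCs, and C2 at 0.319 FPKM in MEFs against 3.55 in iPSCs. Of the 15, 9 were under 1 FPKM in iPSCs. C1qa, C1qb and C1qc, which macrophages make, were at most 6.42 FPKM in MEFs (C1qb), and C1qa and C1qb were listed at 0 in iPSCs. The part of macrophages in the complement count was not tested.

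Membrane and adhesion structures of fibroblasts were mostly lower. Of 13 caveolins, cavins and EHD proteins, which form the flask-shaped pits of the plasma membrane, 11 were lower and 0 higher (median -2.88). Of the 13, 3 were under 1 FPKM in iPSCs. Cav1 was at 945, 814 and 658 FPKM on days 0, 3 and 6 and 7.14 FPKM in iPSCs and Sdpr (cavin 2) at 337, 287 and 256 FPKM on days 0, 3 and 6 and 0.208 FPKM in iPSCs. Ptrf (cavin 1), Prkcdbp (cavin 3), Cav2 and Ehd2 were also lower, with Ptrf at 232 FPKM in MEFs against 13.9 in iPSCs and Ehd2 at 89.9 FPKM in MEFs against 1.34 in iPSCs. Of 38 focal adhesion and actin crosslinking genes, 26 were lower and 4 higher (median -2.26). The adaptor Vcl (vinculin) was at 338, 336 and 221 FPKM on days 0, 3 and 6 and 23.6 FPKM in iPSCs, Tgfb1i1 (HIC-5) at 84.3 FPKM in MEFs against 2.83 in iPSCs and the crosslinker Flna at 867, 858 and 764 FPKM on days 0, 3 and 6 and 111 FPKM in iPSCs. The signalling proteins of the same structures, Ptk2 (focal adhesion kinase, 28.7 FPKM in MEFs against 23.6 in iPSCs) and Pxn (paxillin, 24.3 FPKM in MEFs against 24.1 in iPSCs), were within the rule. The ERM protein Ezr was higher at 30.6 FPKM in MEFs against 102 in iPSCs, while its relative Msn was lower at 345 FPKM in MEFs against 39.5 in iPSCs.

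Calcium-binding and lectin families were among the abundant rows of the MEF side. Of 11 S100 genes, 8 were lower and 1 higher, and 4 of the 11 were under 1 FPKM in iPSCs and 1 in MEFs. S100a4 (ENSMUSG00000001020) was at 923, 804 and 608 FPKM on days 0, 3 and 6 and 0.815 FPKM in iPSCs, S100a6 at 1314, 1156 and 1116 FPKM on days 0, 3 and 6 and 62.1 FPKM in iPSCs and S100a11 at 846 FPKM in MEFs against 164 in iPSCs. S100a10, a partner of annexin 2, was within the rule at 166 FPKM in MEFs against 119 in iPSCs, and S100g was higher at 0.877 FPKM in MEFs against 7.64 in iPSCs. The S100 genes thus lay on both sides, most of them lower. Of 9 annexins, which bind membranes through calcium, 8 were lower and 0 higher (median -1.92), with Anxa1 at 695, 599 and 595 FPKM on days 0, 3 and 6 and 37.8 FPKM in iPSCs and Anxa2 at 673, 705 and 792 FPKM on days 0, 3 and 6 and 202 FPKM in iPSCs. Lgals1, the most abundant galectin, was at 2258, 1905 and 2061 FPKM on days 0, 3 and 6 and 176 FPKM in iPSCs. Tmsb4x, which holds actin monomers, was at 1879, 1449 and 1321 FPKM on days 0, 3 and 6 and 420.3 FPKM in iPSCs.

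The enzymes that shape collagen and the proteases that cut matrix followed the matrix genes themselves. Of 30 genes of collagen folding, hydroxylation and crosslinking, 21 were lower and 0 higher (median -2.01). The crosslinking oxidases Loxl1, Loxl3 and Loxl4 were lower, with Loxl1 at 121 FPKM in MEFs against 1.82 in iPSCs, while Loxl2 was within the rule at 92.4 FPKM in MEFs against 50.5 in iPSCs. The prolyl hydroxylase subunits P4ha1 (112 FPKM in MEFs, 103 in iPSCs) and P4ha2 (45.0 FPKM in MEFs, 44.4 in iPSCs) were within the rule and P4ha3 was lower (26.4 FPKM in MEFs, 0.130 in iPSCs). Of 26 matrix proteases, TIMPs and serpins, 23 were lower and 1 higher (median -3.61), and 5 of the 26 were under 1 FPKM in iPSCs and 1 in MEFs. The metalloprotease inhibitor Timp1 was at 803, 884 and 1548 FPKM on days 0, 3 and 6 and 43.9 FPKM in iPSCs, Timp2 at 562, 532 and 524 FPKM on days 0, 3 and 6 and 12.03 FPKM in iPSCs and the gelatinase Mmp2 at 329 FPKM in MEFs against 8.82 in iPSCs. Timp1 was higher at day 6 than in MEFs by less than the rule and lowest in iPSCs. Mmp9 was higher, at 0.105 FPKM in MEFs against 1.82 in iPSCs.

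Lysosomal genes were lower in iPSCs, and some of their promoters hold the same E-box as germ cell promoters. Of 39 lysosomal proteases, glycosidases and membrane proteins, 25 were lower and 2 higher (median -1.55). The cathepsins Ctsd and Ctsl were at 858, 687 and 691 FPKM on days 0, 3 and 6 and 226 FPKM in iPSCs and at 766, 557 and 468 FPKM on days 0, 3 and 6 and 125 FPKM in iPSCs, and the membrane protein Lamp1 at 481, 402 and 367 FPKM on days 0, 3 and 6 and 156 FPKM in iPSCs. The higher ones were Laptm5 (4.31 FPKM in MEFs, 38.5 in iPSCs) and Manba (6.91 FPKM in MEFs, 22.4 in iPSCs). CACGTG was in 9 of 32 promoters of the list (28.1%), beside 6.02% of all promoters. Lamp1 and Ctsa, a protective protein of lysosomal enzymes (184 FPKM in MEFs, 67.5 in iPSCs), are printed because their direction was opposite to that of Ddx4 and Sycp3. Both lie on the plus strand, Lamp1 at chr8:13158911-13159160 and Ctsa at chr2:164833523-164833772, and capitals mark CACGTG.
Lamp1: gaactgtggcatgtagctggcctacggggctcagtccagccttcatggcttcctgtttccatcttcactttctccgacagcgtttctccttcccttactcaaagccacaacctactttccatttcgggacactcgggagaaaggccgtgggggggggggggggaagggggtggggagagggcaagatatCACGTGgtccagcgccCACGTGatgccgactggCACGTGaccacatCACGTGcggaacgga
Ctsa: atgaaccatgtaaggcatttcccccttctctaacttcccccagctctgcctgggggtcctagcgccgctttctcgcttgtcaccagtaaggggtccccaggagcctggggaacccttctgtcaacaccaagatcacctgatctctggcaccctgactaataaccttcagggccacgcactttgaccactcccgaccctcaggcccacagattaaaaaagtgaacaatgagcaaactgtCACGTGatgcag
Lamp1 held 4 matches within the last 61 bases, and Ctsa held 1, at 12 bases before the start. The same 6 letters thus stood before genes that were higher and genes that were lower in iPSCs.

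Immediate early and growth-control factors were lower. Of 18 AP-1 and immediate early factors, 14 were lower and 0 higher (median -2.34), where 25.0% of all rows were called lower. Of the 18, 6 were under 1 FPKM in iPSCs and were compared through their MEF value alone. Of all rows compared in that way, 78.3% were called lower. Egr1 was at 72.4, 99.97 and 87.4 FPKM on days 0, 3 and 6 and 0.347 FPKM in iPSCs, Fos at 122, 129.6 and 72.5 FPKM on days 0, 3 and 6 and 10.5 FPKM in iPSCs and Fosl2 at 59.0 FPKM in MEFs against 2.16 in iPSCs, while Jund was within the rule at 41.1 FPKM in MEFs against 40.2 in iPSCs. Of 17 genes of the Hippo pathway and its targets, 14 were lower and 1 higher. The coactivator Wwtr1 (TAZ) was at 61.5 FPKM in MEFs against 22.5 in iPSCs, and its relative Yap1 was within the rule at 38.8 FPKM in MEFs against 29.8 in iPSCs. Among the DNA-binding partners, Tead1 was lower (42.4 FPKM in MEFs, 18.6 in iPSCs) and Tead2 higher (26.1 FPKM in MEFs, 63.0 in iPSCs). Of 37 growth factor and guidance receptors, 18 were lower and 5 higher. Axl was at 245, 245 and 197 FPKM on days 0, 3 and 6 and 7.21 FPKM in iPSCs and Fgfr2 at 152 FPKM in MEFs against 6.41 in iPSCs, and the higher ones included Erbb3 at 0.0532 FPKM in MEFs against 6.93 in iPSCs.

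Guidance genes were more often lower than higher. Of 33 ephrins, semaphorins, plexins and SLITs compared, 20 were lower and 3 higher (median -1.13). Of the 33, 8 were under 1 FPKM in iPSCs and 4 in MEFs. The secreted class 3 semaphorins Sema3a, Sema3b, Sema3c, Sema3d, Sema3e and Sema3f were lower, with Sema3a at 63.6, 56.1 and 40.2 FPKM on days 0, 3 and 6 and 0.116 FPKM in iPSCs and Sema3c at 74.1 FPKM in MEFs against 1.54 in iPSCs. The 3 higher members of the list were the membrane-bound class 4 genes Sema4a, Sema4b and Sema4d, with Sema4b at 2.89, 3.94 and 4.38 FPKM on days 0, 3 and 6 and 15.9 FPKM in iPSCs. The class 4 gene Sema4c was within the rule at 2.94 FPKM in MEFs against 3.49 in iPSCs. Sema4g, Sema5b and Sema6c, which the list does not hold, were also higher, with Sema4g at 0.356 FPKM in MEFs against 5.18 in iPSCs, and are named after their values were seen. Over all 17 semaphorin rows compared, 6 were higher and 7 lower. Enzymes of redox defence also differed by member, with 4 of 33 higher (12.1%) and 11 lower (33.3%), beside 21.1% and 25.0% of all rows. Beside Gsta4 and Gpx4 on the iPSC side, Gpx8 was at 159 FPKM in MEFs against 11.4 in iPSCs, Mgst1 at 51.5 FPKM in MEFs against 1.09 in iPSCs and Sod3, the extracellular superoxide dismutase, at 34.8, 36.4 and 26.8 FPKM on days 0, 3 and 6 and 0.0281 FPKM in iPSCs. The aldehyde and carbonyl enzymes Aldh1a1, which makes retinoic acid, and Cbr2 were at 127, 106 and 63.9 FPKM on days 0, 3 and 6 and 0.0414 FPKM in iPSCs and at 287, 247 and 134 FPKM on days 0, 3 and 6 and 0.169 FPKM in iPSCs.

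**Figure D5:**
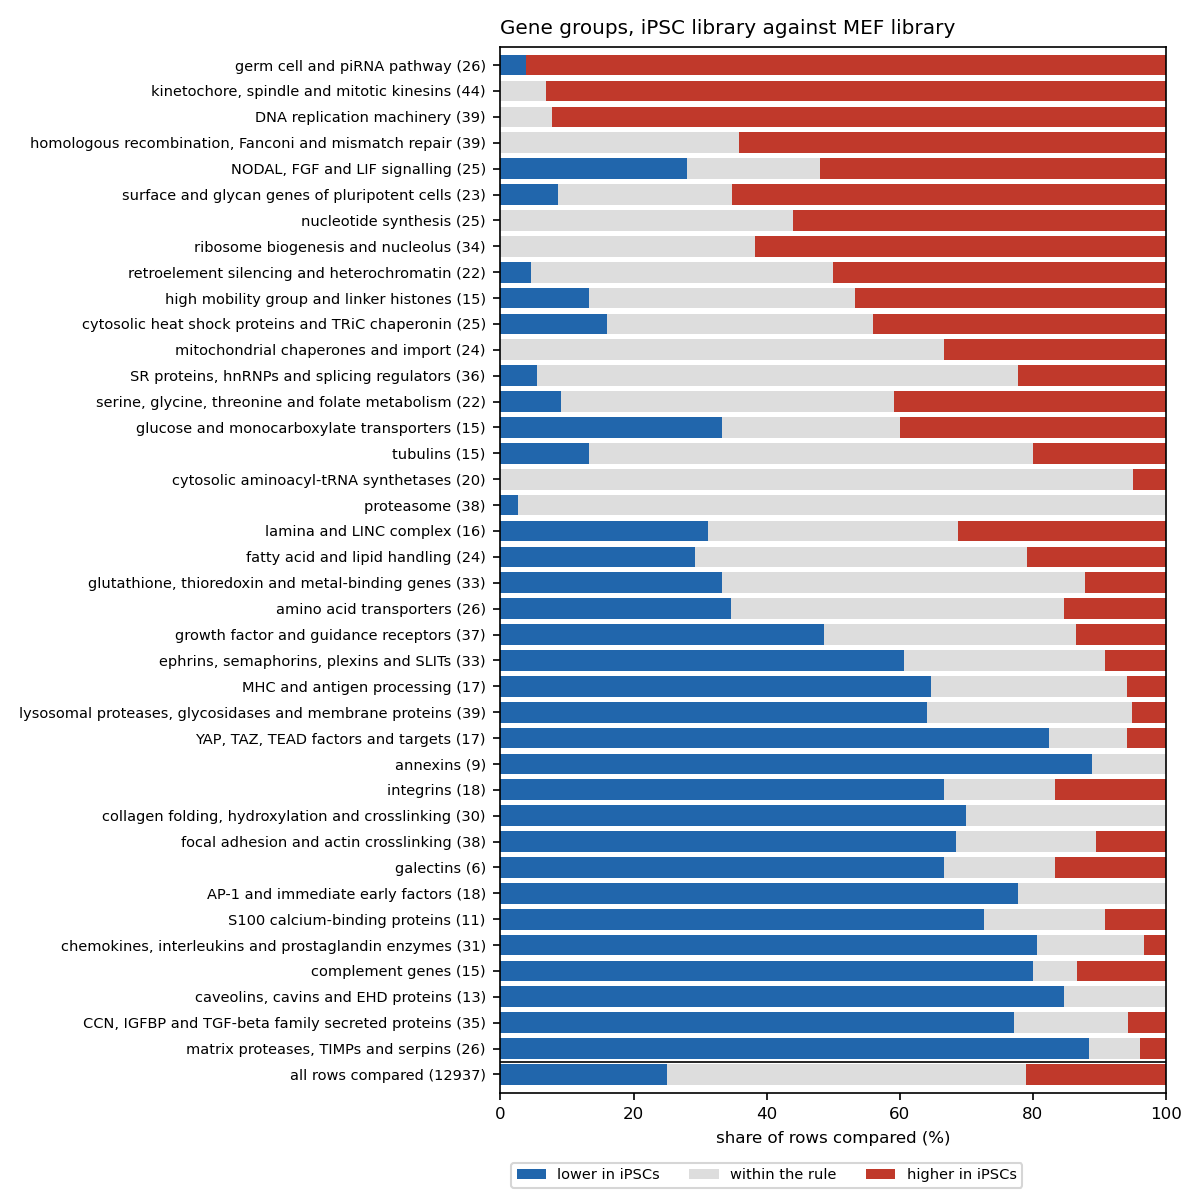
Share of compared members of 39 gene groups that were lower (blue), within the rule (grey) or higher (red) in iPSCs, with the number compared in brackets and all 12937 rows in the bottom bar. Groups are ordered by median difference, from the germ cell group at the top (2.83) to matrix proteases and their inhibitors (-3.61).

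Grouping rows by symbol, without any list, gave 198 families of at least 8 rows. The median difference was at least 1 in 13 of them, at most -1 in 18 and between in 167. The highest medians were those of claudins (8 rows, 5 higher, median 2.44), histones (66 rows, 60 higher, 2.36) and MCM helicase and related genes (10 rows, 8 higher, 2.30). Nucleoporins (Nup symbols) had 14 of 20 rows higher and 0 lower (1.30), and kinesins (Kif) 17 of 31 higher and 3 lower (1.23). The lowest after collagens and HOXA genes were annexins, cadherins and integrin alpha genes. Sulfotransferases with Chst symbols had 6 of 9 lower and 0 higher (-1.43), and guanine nucleotide exchange factors with Arhgef symbols 11 of 20 lower and 2 higher (-1.33). In 63 of the 198 families at least 1 member was higher by 2 and another lower by 2, so a family median often hid members on both sides. The Rab GTPases, for example, had 25 of 59 lower and 9 higher.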

How the data were processed

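RNA of 4 stages was sequenced after removal of ribosomal RNA, and the authors deposited 1 FPKM value per gene and stage, per the file headers. Per the submitters' processing notes the tools were HISAT2 and Cufflinks (versions not given) and the mouse build was mm9. The library kit named in the labels does not mark strand, so overlapping and antisense genes cannot be separated, and near-identical copies can share reads. With Python 3.11.15, pandas 2.3.3, numpy 2.4.6 and matplotlib 3.10.9, log2(FPKM + 1) of the MEF library was subtracted from that of the iPSC library, and the calling rule was checked on simulated data. Of 2 rows with 1 symbol, a list used the higher.

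The members and the 40 gene lists and 10 marker lists were chosen with earlier results of these data known. Genes were named if they were in a list, among the 40 strongest or 40 most abundant called rows of a side, the 20 most abundant rows within the rule, or the 3 rows on each side of either threshold. Symbols of the Rhox list were not found. A few genes that this rule names are not reported here. Motifs were searched in RefSeq promoters (GRCm38.p6), 250 bases before each start. RefSeq also gave gene order, for 12574 of 12878 rows with a symbol, and no coordinates besides those of promoters. Depth and read counts are not in the table, so no counting error is given.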

Additional observations from a re-analysis of the deposited data

How the results depend on the processing

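No paired analysis was possible because both groups consist of 1 library, and no replicate could be left out. A list median counts as moved where it changed by over 1.5-fold. Of 431 list medians under the alternatives, 376 moved by less and 55 by more. The sign changed in 5 medians of 4 lists. NODAL, FGF and LIF signalling went to -0.57 where at least 5 FPKM in either library was required, and had 0.95 without a minimum and 0.57 with a pseudocount of 5. Neural markers went from 0.71 to -0.89 against day 6 and -0.012 against day 3, tubulins from 0.42 to -0.010 against day 6, and glutathione and metal-binding genes from -0.18 to 0.11 against day 3.

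With a pseudocount of 5 the counts were 1502 higher and 1985 lower, and with a log2 difference of at least 2 they were 915 and 1279. With a pseudocount of 0.1, medians were 5.29 for germ cell genes, -4.05 for caveolins, cavins and EHD proteins, -3.82 for CCN, IGFBP and TGF-beta family proteins, -3.78 for chemokines, -3.90 for complement and -1.73 for guidance genes. Marker medians were then -6.27 (MEF), 9.21 (iPSC), -4.25 (macrophage), 2.81 (endothelial), 4.47 (muscle), -4.97 (cartilage), 3.26 (endoderm) and 4.87 (trophoblast). With a pseudocount of 5 the same order of groups gave 1.22, -1.93, -2.04, -1.26 and -1.04 (guidance moved by less), and markers -4.03, 4.21, -0.75, 0.50, 0.92, -1.79, 0.50 and 0.77. Surface genes then had 0.84, integrins -0.98, matrix proteases -2.37 and AP-1 factors -1.66. Without a minimum, medians were -1.12 for S100, -0.70 for galectins, -2.05 for complement, and 0.14, 0.33 and 1.45 for endothelial, muscle and trophoblast markers. With at least 5 FPKM they were 1.61 for glucose and monocarboxylate transporters, -4.16 for CCN, IGFBP and TGF-beta family proteins, -3.50 for chemokines, -2.23 for antigen processing, -1.74 for guidance genes, and -2.66, 3.70, 3.97 and 3.24 for macrophage, endothelial, muscle and trophoblast markers. Against day 6, caveolins, cavins and EHD proteins had -2.29 and endothelial and cartilage markers 0.22 and -2.95. Against day 3, endothelial markers had 0.64. The marker lists had 10 genes or fewer, and most of those that moved rest on few genes above 1 FPKM. The cause of the changes was not tested. Of the 40 strongest rows, a pseudocount of 0.1 kept 30 higher and 24 lower, and upper quartile scaling 40 and 39.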

Other observations

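Some abundant transcripts hardly differed between fibroblasts and iPSCs. Among the 20 most abundant rows within the rule were the mitochondrial oxidase subunit mt-Co1 (6222, 6507 and 6281 FPKM on days 0, 3 and 6 and 6598 FPKM in iPSCs), the elongation factor Eef1a1 (5704, 5275 and 4819.8 FPKM on days 0, 3 and 6 and 6950.0 FPKM in iPSCs), the iron store subunit Ftl1 (1719.6, 1498 and 2002 FPKM on days 0, 3 and 6 and 1742 FPKM in iPSCs) and the prolyl isomerase Ppia (1396, 1229 and 1131 FPKM on days 0, 3 and 6 and 1582 FPKM in iPSCs). These named rows differed by 0.02 (Ftl1) to 0.28 (Eef1a1), and all 20 rows by -0.48 to 0.98. Not all mitochondrially encoded genes were level like mt-Co1. Called lower were mt-Nd1 (4096 FPKM in MEFs, 1387 in iPSCs), mt-Cytb (2145 FPKM in MEFs, 582 in iPSCs) and mt-Nd2 (1461 FPKM in MEFs, 619 in iPSCs). The 13 genes with mt- symbols together held 3.16% of the FPKM sum in MEFs and 2.26% in iPSCs. Tubulins were split. Of 15 compared, 3 were higher and 2 lower. Tubb5, the most abundant, was at 638 FPKM in MEFs against 736 in iPSCs, Tuba1a, a form known from migrating neurons and fibroblasts, at 241, 205 and 235 FPKM on days 0, 3 and 6 and 55.5 FPKM in iPSCs and Tubb2b at 18.3 FPKM in MEFs against 38.4 in iPSCs. Tuba3a, a testis form with a near-identical copy, was at 0.00958 FPKM in MEFs against 10.2 in iPSCs. Of 15 high mobility group and linker histone genes, 7 were higher and 2 lower, and of 6 galectins 1 was higher and 4 were lower.

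Some genes on one side lay next to each other. In the RefSeq order of protein-coding genes, 40 runs of at least 4 neighbouring compared genes were all higher in iPSCs (211 genes, 7.75% of the 2724 rows called higher) and 79 runs were all lower (359 genes, 11.1% of 3232). How many such runs chance would give was not computed. Beside the histone clusters, the longest higher run had 8 genes, from Gm13225 to Gm13145 with the zinc finger genes Zfp600 and Rex2. Of 3 runs of 6 genes, 1 went from Gm13151 to Gm13157 with Zfp534, 1 from Cbs to Notch3 and 1 from Znrd1 to Gabbr1. In these runs Gm13145 was at 0.0180, 0 and 0.0190 FPKM on days 0, 3 and 6 and 31.1 FPKM in iPSCs, Zfp600 at 0.0423, 0 and 0.0124 FPKM on days 0, 3 and 6 and 10.7 FPKM in iPSCs and Zfp534 at 0.0482, 0.139 and 0.0654 FPKM on days 0, 3 and 6 and 25.02 FPKM in iPSCs. Gsta4, Dppa5a, Ooep and Ddx43 formed another run, and Fdft1, Neil2, Gata4 and Tdh another. Among the lower runs were 10 genes from S100a1 to S100a11, 10 genes that hold Acta2, Fas, Ch25h, Lipa and Ifit genes, 9 genes around the interferon-inducible GTPase gene Irgm1, and 8 genes from Sema3d to Magi2 with Sema3a, Sema3c, Sema3e and Hgf. Irgm1 was at 51.0, 40.8 and 45.7 FPKM on days 0, 3 and 6 and 0.775 FPKM in iPSCs. Members of such clusters can be similar in sequence, and how reads were shared among them was not tested. The clusters named here were chosen after their values were seen.

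Several genes outside the rule for named genes had large values on the iPSC side and were also picked after the values were seen. Tfrc, the receptor that takes up iron with transferrin, was at 10.9998, 15.6 and 15.3 FPKM on days 0, 3 and 6 and 278 FPKM in iPSCs. Peg10, an imprinted gene derived from a retrotransposon, was at 3.74, 4.39 and 4.02 FPKM on days 0, 3 and 6 and 101 FPKM in iPSCs. Folr1, a folate receptor, was at 0.273, 0.210 and 0.0807 FPKM on days 0, 3 and 6 and 41.8 FPKM in iPSCs, and Aire, known for self-antigen expression in the thymus, at 0.00561, 0.0472 and 0 FPKM on days 0, 3 and 6 and 27.8 FPKM in iPSCs. On the fibroblast side Foxp2, a forkhead factor known from brain and lung, was at 50.9, 57.0 and 33.8 FPKM on days 0, 3 and 6 and 0.0177 FPKM in iPSCs, and Ereg (epiregulin), a ligand of the EGF receptor, at 45.6, 55.9 and 49.2 FPKM on days 0, 3 and 6 and 0.0223 FPKM in iPSCs.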
